A study of Mus musculus with 24 samples.

Results

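Collagens and the small proteoglycans bound to them are described here in kidneys of male and female mice, as RNA levels in the active and the inactive phase of the day. The group was taken by symbol, as every mouse collagen chain gene plus Lum, Dcn, Bgn, Fmod, Ogn, Fn1, Postn and Sparc, with a mean of at least 10 normalized counts over all libraries. Of 52 genes that matched, 43 passed this minimum, 35 of 44 collagens and 8 of 8 others, among 17333 genes tested in all. Poly A RNA was sequenced in 24 libraries of bulk kidney, with 6 libraries for each sex in the active phase and 6 for each sex in the inactive phase, sampled in the middle of the phase. The labels used here name no strain, age, genotype or clock time. They also do not say that each library came from its own animal, so a p-value speaks only of the spread between libraries, some of which may be technical.

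Collagens are proteins of the extracellular matrix in which chains wind into a triple helix. Fibrillar collagens form the cables of the interstitium between tubules, type IV collagens form the sheet-like network of basement membranes, and type VI collagens form beaded filaments beside cells. In the kidney the network of the glomerular filter is built from the chains of Col4a3, Col4a4 and Col4a5, and most interstitial matrix is made by fibroblasts and pericytes. Small leucine-rich proteoglycans such as decorin and biglycan coat collagen fibrils and bind growth factors.

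Promoter windows are shown for 5 members on which the results turn, because they differ in where they were called: Col13a1 between the phases, Col1a2 and Col3a1 in the difference between the sexes in the phase change, and Col19a1 and Col6a6 as higher in males. Each runs 5′ to 3′ from 250 bases before to 50 bases after the RefSeq start, in build GRCm38.p6, and capitals mark matches on either strand to the E-box CACGTG, the box CCAAT, the TATA box TATAAA or the hormone receptor half-site AGAACA. The 4 motifs were counted separately, whether or not they overlap.
Col13a1, chr10:61979059-61979358, minus strand: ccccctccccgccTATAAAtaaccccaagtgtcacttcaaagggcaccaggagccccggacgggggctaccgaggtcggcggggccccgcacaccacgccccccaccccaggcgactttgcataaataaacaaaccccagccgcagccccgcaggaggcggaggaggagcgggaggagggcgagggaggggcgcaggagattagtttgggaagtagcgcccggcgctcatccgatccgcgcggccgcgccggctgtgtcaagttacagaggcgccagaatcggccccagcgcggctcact
Col1a2, chr6:4505368-4505667, plus strand: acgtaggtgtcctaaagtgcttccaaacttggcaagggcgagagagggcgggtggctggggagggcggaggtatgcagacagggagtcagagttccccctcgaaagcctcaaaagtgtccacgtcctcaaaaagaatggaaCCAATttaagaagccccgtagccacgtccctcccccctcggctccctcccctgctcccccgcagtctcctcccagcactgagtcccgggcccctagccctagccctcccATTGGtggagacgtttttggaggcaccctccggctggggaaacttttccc
Col3a1, chr1:45311288-45311587, plus strand: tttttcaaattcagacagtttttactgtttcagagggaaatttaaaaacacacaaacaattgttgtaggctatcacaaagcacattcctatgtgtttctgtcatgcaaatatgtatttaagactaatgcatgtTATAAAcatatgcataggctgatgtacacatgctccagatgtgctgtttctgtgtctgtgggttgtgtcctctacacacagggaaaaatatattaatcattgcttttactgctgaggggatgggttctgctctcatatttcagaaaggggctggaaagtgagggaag
Col19a1, chr1:24587388-24587687, minus strand: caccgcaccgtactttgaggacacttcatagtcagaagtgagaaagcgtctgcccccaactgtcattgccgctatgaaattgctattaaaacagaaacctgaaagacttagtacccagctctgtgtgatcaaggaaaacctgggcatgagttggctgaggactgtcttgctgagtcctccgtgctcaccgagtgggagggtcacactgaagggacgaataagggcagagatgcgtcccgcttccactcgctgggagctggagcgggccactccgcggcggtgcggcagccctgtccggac
Col6a6, chr9:105828036-105828335, minus strand: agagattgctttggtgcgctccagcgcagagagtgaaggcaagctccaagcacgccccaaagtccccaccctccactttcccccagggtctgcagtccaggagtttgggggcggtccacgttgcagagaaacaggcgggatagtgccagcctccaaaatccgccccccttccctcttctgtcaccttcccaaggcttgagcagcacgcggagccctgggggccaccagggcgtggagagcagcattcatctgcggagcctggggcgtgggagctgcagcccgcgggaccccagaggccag
For these counts each member was read at its first listed window only, while the set of all windows was not reduced in this way. The shares of members and of all are therefore not on like sets. The E-box, a sequence that clock activators bind, stood in 0 of the 34 member windows held here and in 7.2% of all 32851 windows. CCAAT stood in 12 of the 34 (35.3%) and in 37.4% of all, and TATAAA in 4 (11.8%) and in 13.6% of all. AGAACA, the half-site that androgen and glucocorticoid receptors bind, stood in 3 (8.8%) and in 19.0% of all. The Col1a2 window held CCAAT at 2 places, Col13a1 and Col3a1 each held TATAAA once, and the Col19a1 and Col6a6 windows held none of these letters. A match here is a description of the sequence, and none of these windows was tested for binding.

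Values are the authors' normalized counts. Libraries held 31039867 to 39302246 reads. Their normalized totals were 29558700 to 32414204 in females and 35973179 to 39516804 in males. Tubule, glomerular, vascular and stromal markers were present in every group. Of 10 adrenal markers 4 were at 0 in every library, among them the enzyme genes Cyp11b1 and Cyp11b2. The 10 summed to 183 to 233 normalized counts in active and 194 to 260 in inactive females. In males they summed to 143 to 218 and 136 to 239. Only Star passed the minimum, and it was lower in males in each phase. To compare genes, levels were divided by the joined length of all annotated exons of a gene. That length can exceed the length of a single transcript, so close ranks are not firm. On this scale the highest mean levels were those of Sparc (1190.4 normalized counts per kilobase), Col4a3 (1067), Col4a4 (958), Bgn (914) and Col4a1 (855). The lowest were those of Col6a5 (1.58) and Col25a1 (1.84). Genes just inside the minimum of 10 were Col8a2 at 13.5 and Col6a5 at 14.9, and just outside it were Col9a3 at 9.998 and Col28a1 at 9.60.

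**Figure D1:**
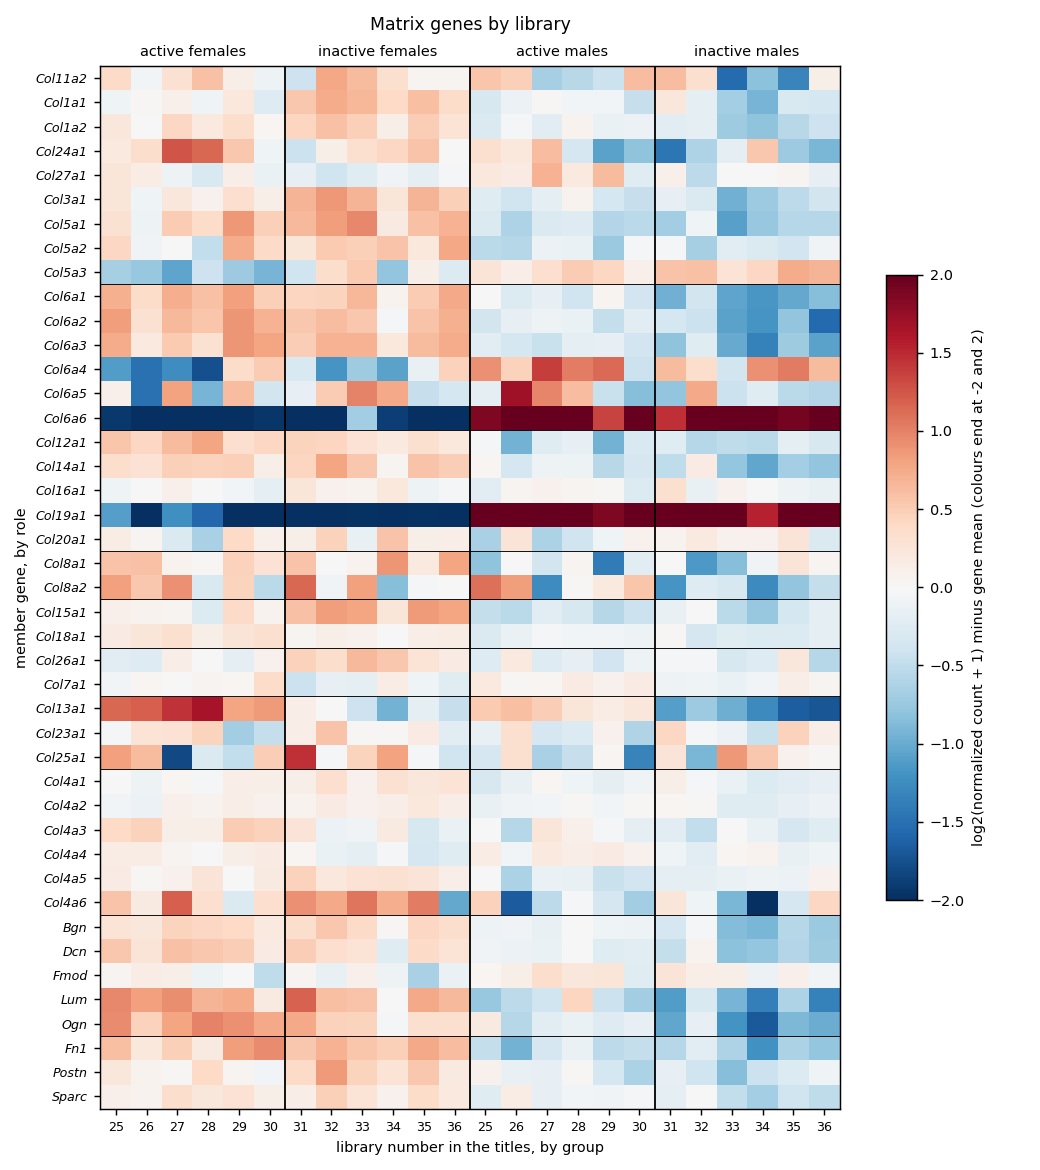
Level of each of the 43 members (rows, by role) in each of the 24 libraries (columns, by group, with the number in the title), as log2(normalized count + 1) minus the mean of the gene, with colours ending at -2 and 2. Most rows are redder in females than in males, Col6a6 and Col19a1 are the reverse, and Col13a1 is red in active and blue in inactive libraries within each sex.

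In females, several interstitial and basement membrane collagens had less RNA in the active phase, while both genes of a glomerular type IV pair and Col13a1 had more. Col1a1, Col3a1, Col5a3, Col15a1, Col26a1 and Col4a1 were lower, and Col13a1, Col4a3 and Col4a4 were higher. That is 9 of 43 members called at an adjusted p under 0.05 (20.9%), 3 higher and 6 lower, where 15% of all tested genes were called (7.97% higher and 6.98% lower). The median log2 fold of the members was -0.09, beside -0.002 for all tested genes. The 5 small leucine-rich proteoglycans and the glycoproteins Fn1, Postn and Sparc did not pass in limma. At an unadjusted p under 0.05, 1 proteoglycan was higher and 1 glycoprotein lower.

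In males, the active phase had higher RNA of type VI collagen, of proteoglycans and of single members of other classes. Col6a1, Col6a2, Col6a3, Bgn, Dcn, Ogn, Sparc, Col1a2, Col4a4 and Col13a1 were higher and 0 were lower. These 10 of 43 are 23.3%, where 15.4% of all genes were called, 8.43% higher and 6.95% lower. The median log2 fold was 0.18, beside 0.015 for all genes. At an unadjusted p under 0.05, 1 member was lower in active males in limma, and edgeR and DESeq2 also called 0 lower. Members called in both sexes were Col13a1 and Col4a4, 2 of 9 in females and 2 of 10 in males, and 26 members were called in neither. The overlap between the sexes was not counted over all genes.

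**Figure D2:**
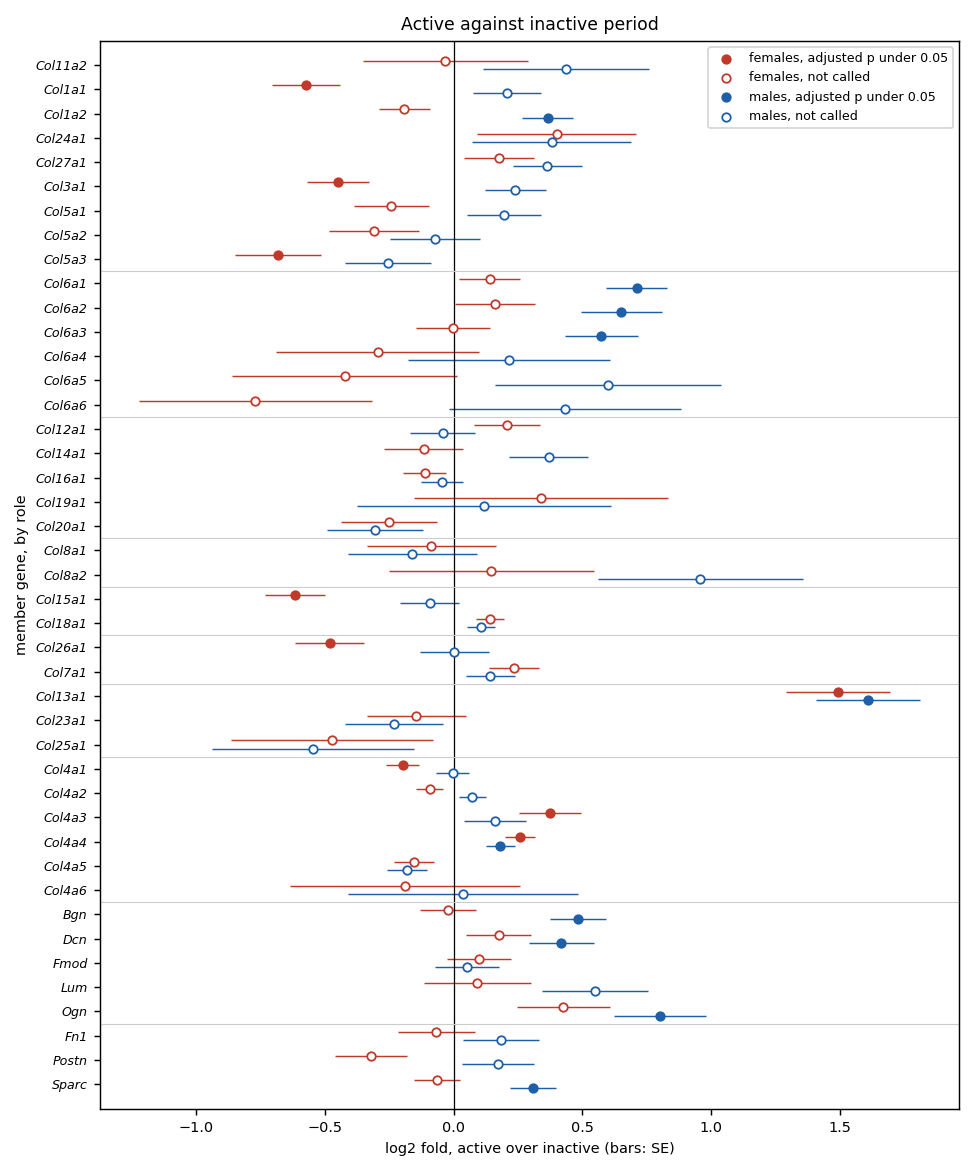
Log2 fold of the active over the inactive phase (x axis, bars are SE) for the 43 members (y axis, by role), in females (red) and males (blue), with filled points for an adjusted p under 0.05. Col13a1 stands at 1.49 and 1.61, and Col1a1 and Col3a1 lie left of 0 in females and right of 0 in males.

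Col13a1 (ENSMUSG00000058806), a collagen that spans the cell membrane and is known for its part in holding the neuromuscular junction, had the largest change between phases among the called members in each sex. In females it was at 97.2 to 176 (median 126) normalized counts in active and 28.3 to 61.1 (median 44.8) in inactive libraries. In males it was at 61.4 to 84.6 (median 72.3) and 16.3 to 33.1 (median 23.9). All active libraries lay above all inactive ones in each sex. Groups were separate for 1 member higher and 2 lower in females, where 7.83% of all genes were separate (4.4% higher and 3.43% lower), and for 1 higher in males, where 4.29% were (2.28% higher). The mean was 2.84-fold higher in active females (log2 fold 1.49 ± 0.20, adjusted p = 4.14e-06) and 3.07-fold higher in active males (log2 fold 1.61 ± 0.20, adjusted p = 3.73e-06). The difference between the sexes in this change was 0.12 ± 0.29, adjusted p = 0.864. The other transmembrane collagens did not pass, Col23a1 at log2 folds of -0.14 and -0.23 and Col25a1 at -0.47 and -0.55.

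Type I collagen, the main fibre of interstitial matrix, is assembled from the chains of Col1a1 and Col1a2. Col1a1 (ENSMUSG00000001506) was at 515 to 719 (median 604) normalized counts in active females and 797 to 1039.7 (median 919) in inactive females, with no overlap. Its mean was 1.49-fold lower in active females (log2 fold -0.57 ± 0.13, adjusted p = 0.00313). In males it was at 449 to 631 (median 584) and 326 to 726 (median 493), overlapping, and did not pass (log2 fold 0.21 ± 0.13, adjusted p = 0.295).

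Col1a2 (ENSMUSG00000029661) was called in males and not in females. Its active male libraries were at 1691 to 2164 (median 1888) and its inactive male libraries at 1175 to 1794 (median 1467), overlapping, with more RNA in the active phase (log2 fold 0.37 ± 0.10, adjusted p = 0.0135). In females it was at 2383 ± 276 and 2722 ± 314 and did not pass (log2 fold -0.19 ± 0.10, adjusted p = 0.214).

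Type III collagen, the fine fibre that accompanies type I, comes from Col3a1 (ENSMUSG00000026043) alone. Active females stood at 1352 to 1826 (median 1631) and inactive females at 1703 to 2638 (median 2311), overlapping in a narrow range, and the mean fell 1.37-fold (log2 fold -0.45 ± 0.12, adjusted p = 0.0118). Males stood at 1210.0 ± 171 and 1033 ± 202 and did not pass (log2 fold 0.24 ± 0.12, adjusted p = 0.179).

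In the limma fit, the change between phases itself was called as different between the sexes for these 3 fibrillar genes, 3 of 43 (6.98%) where 2.71% of all genes were called, 1.41% more positive and 1.3% more negative in males. At an unadjusted p under 0.05 there were 15 members more positive and 0 more negative in limma, and edgeR and DESeq2 also called 0 more negative. The share of all genes at the unadjusted threshold was not counted, so the 15 cannot be set against the 2.71%. That limit holds for every other count given at an unadjusted p, in each comparison and list. Each of the 3 called was more positive in males. The difference, male minus female, was 0.78 ± 0.19, adjusted p = 0.0222 for Col1a1, 0.69 ± 0.17, adjusted p = 0.0282 for Col3a1 and 0.56 ± 0.14, adjusted p = 0.0291 for Col1a2. Col1a1 kept its call in each of the 35 other analyses. Col3a1 lost it without active female library 28, inactive female library 32 or 33, or inactive male library 34 (adjusted p 0.0506 to 0.0545). Col1a2 lost it without active female library 28 or 30, inactive female library 32, 33 or 35, active male library 26 or inactive male library 33 (adjusted p 0.0502 to 0.0584), and with equal totals or a plain variance prior (0.0519 to 0.0579). The count was 7 with library weights and 6 with DESeq2, where 3.91% and 6.4% of all genes were called. Without inactive male library 32 it was 9, adding Bgn, Col14a1, Col15a1, Col6a1, Col6a3 and Sparc, where 3.57% of all genes were called. Without inactive female library 34 it was 6, and without active female library 28 or inactive female library 32 or 33 it was 1. Of all 17333 genes, 212 were more positive and 224 more negative in males without inactive female library 34. These were 139 and 137 without active female library 28. They were 154 and 139 without inactive female library 32, and 157 and 133 without inactive female library 33.

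**Figure D3:**
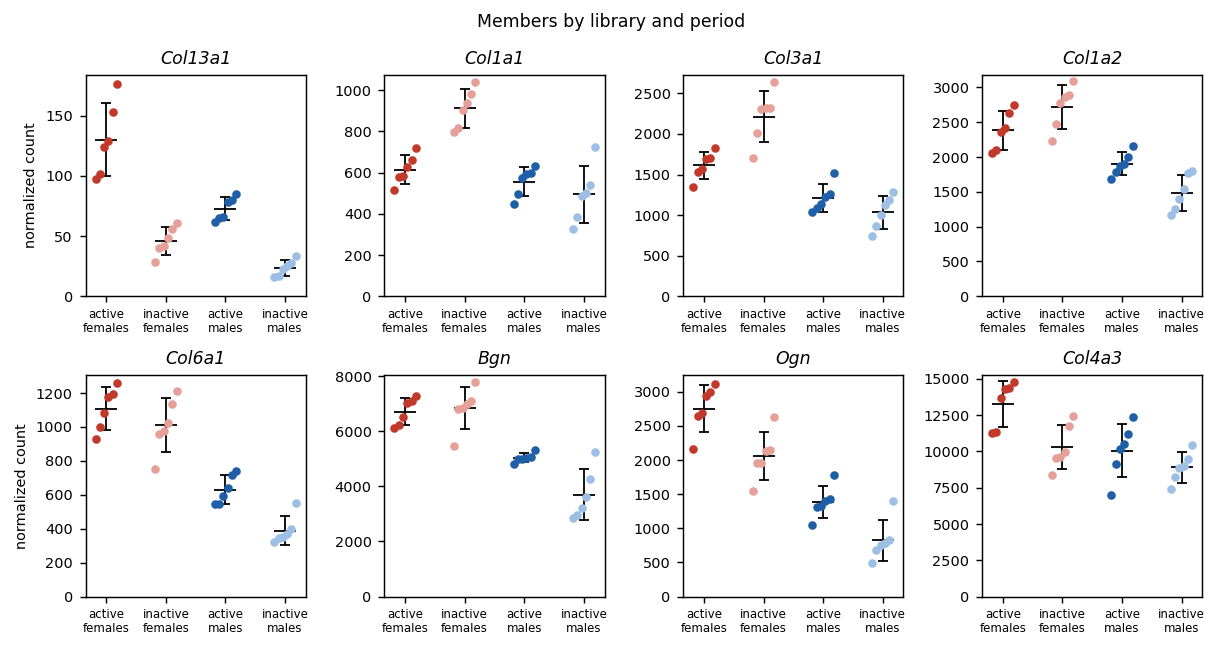
Normalized counts of 8 members (y axis, from 0) in each library (points) of the 4 groups (x axis), with mean and SD as bars. Active libraries of Col13a1 lie above inactive ones in each sex, those of Col1a1 lie below them in females, and one inactive male library stands above the other 5 for Col6a1 and Ogn.

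Among the other fibrillar chains, Col5a3, a minor chain that joins type V collagen, fell in active females, at 58.6 to 91.9 (median 73.2) and 70.7 to 177 (median 118) (log2 fold -0.68 ± 0.17, adjusted p = 0.00475). Col5a1 and Col5a2, the main chains of type V collagen, which sets fibril diameter, did not pass in females (-0.24 and -0.31) or in males (0.20 and -0.07). Col27a1, at means of 3584 to 5017 in the 4 groups the fibrillar gene with the highest count, did not pass either (0.443 and 0.0712, adjusted p). Col24a1 and Col11a2, at mean levels under 63 in every group, did not pass in either sex.

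Col15a1 and Col18a1 encode multiplexins, collagens of the basement membrane zone of vessels and epithelia. Col15a1 (ENSMUSG00000028339) was at 705 to 1110.2 (median 892) in active and 1008 to 1539 (median 1471) in inactive females, a fall of 1.53-fold (log2 fold -0.61 ± 0.12, adjusted p = 0.000483). The groups overlapped between 1008 and 1110.2. In males it was at 636 ± 60.2 and 686 ± 126 (log2 fold -0.09 ± 0.12, adjusted p = 0.633), and Col18a1 did not pass in either sex (0.0746 in females and 0.185 in males, adjusted p). Col26a1, a short collagen of little known function, fell without overlap in females, at 102 to 135 (median 115) and 137 to 194 (median 163) (log2 fold -0.48 ± 0.14, adjusted p = 0.0134), and stood at 110.3 ± 16.0 and 111 ± 21.1 in males.

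Type IV collagen genes lie in head-to-head pairs. In the annotation of GRCm38.p6, Col4a1 neighbours Col4a2, Col4a3 neighbours Col4a4 and Col4a5 neighbours Col4a6. Col4a4 (ENSMUSG00000067158) rose in both sexes. Females were at 10147 to 11364 (median 11085) in the active and 8045 to 10422 (median 9009) in the inactive phase (log2 fold 0.26 ± 0.06, adjusted p = 0.0022). Males were at 9788 to 11602 (median 11143) and 8756 to 10663 (median 9557) (log2 fold 0.18 ± 0.06, adjusted p = 0.0306). The rise was 1.19-fold and 1.13-fold, and the groups overlapped in each sex. The male call was lost without active male library 27 or 29 or inactive male library 32, 35 or 36 (adjusted p 0.0589 to 0.0758), and with upper quartile scaling or a plain variance prior (0.0541 to 0.0638).

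Its partner Col4a3 (ENSMUSG00000079465) rose 1.29-fold in active females, from 10279 ± 1518 to 13297 ± 1591 (log2 fold 0.38 ± 0.12, adjusted p = 0.0357). That call was lost without active female library 25, 26, 29 or 30 or inactive female library 32, 33, 35 or 36 (adjusted p 0.0651 to 0.0892), and with no minimum or upper quartile scaling (0.0522 to 0.0868). In males Col4a3 stood at 10057 ± 1846 and 8902 ± 1043 and did not pass (log2 fold 0.16 ± 0.12, adjusted p = 0.387). Of 8 podocyte markers, genes of the glomerular cell that makes this network, 2 were higher and 0 lower in active females, and 0 higher and 2 lower in active males. Their summed level was 18231 to 19897 in active and 16423 to 18847 in inactive females. The part of podocyte content in the result was not tested.

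Col4a1 (ENSMUSG00000031502), of the network found in all basement membranes, fell 1.15-fold in active females, at 5878 to 6927 (median 6438) and 6700.1 to 8011 (median 7512) (log2 fold -0.20 ± 0.06, adjusted p = 0.0317). The call was lost without active female library 25, 26 or 28 or inactive female library 32, 34, 35 or 36 (adjusted p 0.0512 to 0.0840), and with a plain variance prior (0.06). Its neighbour Col4a2 did not pass (log2 fold -0.09 ± 0.05, adjusted p = 0.271), nor did either gene in males (-0.00 and 0.07). Means ± SD of Col4a2 in the active and then the inactive phase were 3722 ± 244 and 3963 ± 139.9 in females and 3517 ± 163 and 3352 ± 294 in males. Col4a1 was at 5833 ± 493 and 5852 ± 591 in males. Col4a5, in the same phase order, was at 2193 ± 147 and 2441 ± 189.9 in females and 1665 ± 271 and 1871 ± 136 in males. Col4a5 and its X-linked neighbour Col4a6 did not pass between phases in females (-0.15 and -0.19) or males (-0.18 and 0.04).

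Type VI collagen is assembled from the chains of Col6a1, Col6a2 and Col6a3, and all 3 genes rose in active males. Col6a1 (ENSMUSG00000001119) was at 545 to 741 (median 618) in active and 321 to 553 (median 359) in inactive males, 1.62-fold higher (log2 fold 0.71 ± 0.12, adjusted p = 0.000184). Only inactive male library 32 reached into the active range, the next highest inactive library being at 396. Col6a2 rose 1.52-fold (log2 fold 0.65 ± 0.16, adjusted p = 0.00601) and Col6a3 1.45-fold (log2 fold 0.57 ± 0.14, adjusted p = 0.00886). In the active and then the inactive phase Col6a2 was at 548 ± 77.9 and 493 ± 80.5 in females and 293 ± 28.98 and 193 ± 60.3 in males. Col6a3 was at 1357 ± 251 and 1349 ± 176 in females and 737 ± 58.5 and 509 ± 142 in males. In both, active males lay between inactive males and females in their means. In females the log2 folds of Col6a1, Col6a2 and Col6a3 were 0.14, 0.16 and -0.00 and did not pass. Col6a4, Col6a5 and Col6a6, which encode chains that resemble that of Col6a3 and lie side by side, did not pass in either sex. These 3 are related in sequence, so reads could be split between them.

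Among the small leucine-rich proteoglycans, biglycan, decorin and osteoglycin rose in active males. Bgn (ENSMUSG00000031375) was at 4813 to 5328 (median 5013) in active and 2839 to 5263 (median 3414) in inactive males, a rise of 1.37-fold (log2 fold 0.48 ± 0.11, adjusted p = 0.00467). Its active libraries lay close together and its inactive ones were spread, with inactive library 32 inside the active range. In females Bgn was at 6721 ± 487 and 6839 ± 761 (log2 fold -0.02 ± 0.11, adjusted p = 0.937).

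Ogn (ENSMUSG00000021390), which encodes osteoglycin, rose 1.68-fold in active males, at 1051 to 1775 (median 1363) against 488 to 1392 (median 771), overlapping (log2 fold 0.80 ± 0.18, adjusted p = 0.00514). In females it stood at 2754 ± 345 and 2059.5 ± 356 (log2 fold 0.43 ± 0.18, adjusted p = 0.122). Dcn (ENSMUSG00000019929), which encodes decorin, rose 1.31-fold in males, to 1559 ± 107 from 1192 ± 309 (log2 fold 0.42 ± 0.13, adjusted p = 0.0278). The Dcn call was lost without active male library 26 or 28 or inactive male library 33, 34, 35 or 36 (adjusted p 0.0534 to 0.0685), and with no minimum or equal totals (0.0513 to 0.068). Lum, which encodes lumican and neighbours Dcn, was at 59.3 to 136 (median 72.5) in active and 38.5 to 81.8 (median 49.5) in inactive males and did not pass (log2 fold 0.55 ± 0.21, adjusted p = 0.0685). Female means of Dcn were 2309.8 ± 269 and 2057 ± 322. Fmod, which encodes fibromodulin, was at 233 ± 35.96 and 218 ± 36.7 in females and 262 ± 36.3 and 252 ± 23.0 in males, active phase first, and did not pass.

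Of the glycoproteins, Sparc (ENSMUSG00000018593), which encodes a collagen-binding protein, rose 1.23-fold in active males, at 3748 to 4896 (median 4226) against 2771 to 4426 (median 3243), overlapping (log2 fold 0.31 ± 0.09, adjusted p = 0.0187). That call was lost without active male library 26 or inactive male library 34 or 36 (adjusted p 0.0505 to 0.0626), and with equal totals (0.0604). Fn1, which encodes fibronectin, the scaffold on which collagen is laid down, did not pass in females (log2 fold -0.07 ± 0.15, adjusted p = 0.834) or males (log2 fold 0.18 ± 0.15, adjusted p = 0.434). Fn1 was at 1918 ± 418 and 1973 ± 143 in females and 937 ± 164 and 830.5 ± 182 in males, active phase first. Postn, which encodes periostin, a matrix protein of remodelling tissue, did not pass either (-0.32 and 0.17), at 169.6 ± 20.3 and 213 ± 37.2 in females and 137 ± 23.9 and 121 ± 21.4 in males. Female Sparc means were 5064 ± 392.1 and 5303 ± 554.

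Some markers of stromal and vascular cells were higher in active males. Of 12 fibroblast markers 3 were higher and 0 lower in active males, and of 10 endothelial markers 6 were higher and 0 lower. Of 10 smooth muscle and pericyte markers 2 were higher, 0 lower and 8 not called. Of all genes 8.43% were called higher and 6.95% lower. The summed fibroblast markers were at 18647 to 23640.3 in active and 12305 to 18072 in inactive males, with no overlap, and the summed endothelial markers at 15234 to 17664 and 10099 to 16968. The endothelial sums overlapped, and so did the smooth muscle and pericyte sums, at 8210 to 9118 in active and 7555 to 8565 in inactive males. In females 2 of the fibroblast markers were higher and 1 lower in the active phase, and 3 of the endothelial markers were higher and 1 lower. Of the smooth muscle and pericyte markers 1 was higher and 0 lower in active females, where 7.97% of all genes were higher and 6.98% lower. The female sums overlapped, at 20914 to 27543 and 17125 to 24752 for fibroblasts and 20824 to 26730.4 and 17655 to 24169.7 for endothelium. In bulk tissue, fewer cells of a type and less RNA per cell cannot be told apart, and the part of cell content in these results was not tested. Inactive male library 32 had the highest fibroblast sum (18072) and endothelial sum (16968) of its group. It was the highest of its group for 15 of 43 members. Inactive male library 34 had the lowest of both sums (12305 and 10099) and was the lowest of its group for 18 members. Such ranks were not counted over all genes. Without library 32, 11 members were called higher in males and 0 lower, with Col14a1 and Lum added and Col4a4 lost. Of all genes 9.27% were then called higher and 7.77% lower. Active males then lay above the other 5 inactive libraries for 6 members, Bgn, Col13a1, Col6a1, Col6a3, Dcn and Ogn, where 3.66% of all genes did. Fewer libraries make such a separation easier for every gene. Leaving out inactive male library 36 instead gave the lowest count, 7 members called in males. Of all 17333 genes, 1046 were then called higher and 832 lower.

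The genes that make and finish collagen were read from lists of related genes. The shares of all genes to read these lists against are 7.97% higher and 6.98% lower for the active phase in females, and 8.43% and 6.95% in males. Of 16 tested enzymes and chaperones of collagen synthesis, 5 were higher and 1 lower in active females (37.5% called), and 4 higher and 1 lower in active males (31.2%). Named after their values were seen, P4ha1, P4ha2, P4hb and Serpinh1 were higher in both sexes. The first 3 encode subunits of prolyl 4-hydroxylase, which stabilizes the triple helix, and Serpinh1 encodes the collagen chaperone HSP47. P4ha1 rose 1.57-fold in females (log2 fold 0.65 ± 0.14, adjusted p = 0.00318) and 1.36-fold in males (log2 fold 0.44 ± 0.14, adjusted p = 0.0418). Serpinh1 rose in females (log2 fold 0.43 ± 0.14, adjusted p = 0.048) and in males (log2 fold 0.52 ± 0.14, adjusted p = 0.019). Colgalt2, a collagen galactosyltransferase gene, was the one that fell in each sex (-0.27 and -0.32). Mia3, which encodes the protein that loads procollagen for export, rose in females (log2 fold 0.26 ± 0.05, adjusted p = 0.000165) and not in males (log2 fold 0.02 ± 0.05, adjusted p = 0.840), a difference of -0.24 ± 0.06, adjusted p = 0.0379.

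Of 13 genes of procollagen processing and cross-linking 0 were called in females by limma, with 2 higher and 0 lower at an unadjusted p under 0.05, and 3 were higher in active males, Loxl1, Pcolce and Tgm2. Of 15 elastic fibre genes 2 were lower in active females, Fbn1 and Mfap5, and 7 were higher and 0 lower in active males (8 and 2 at an unadjusted p under 0.05 in limma). Ltbp4, which binds latent growth factor, rose in males (log2 fold 0.55 ± 0.09, adjusted p = 7.74e-05) and stood at 0.09 in females, a difference of 0.45 ± 0.12, adjusted p = 0.0387. Fbn1, which encodes fibrillin, fell in females (log2 fold -0.47 ± 0.11, adjusted p = 0.00435), and Emilin1 rose in males (log2 fold 0.40 ± 0.11, adjusted p = 0.012).

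Among 16 laminins and partners in the basement membrane, the active phase had 2 higher and 1 lower in females and 4 higher and 1 lower in males. Npnt, which encodes nephronectin, a basement membrane ligand of integrins, rose without overlap in females (log2 fold 0.56 ± 0.09, adjusted p = 3.37e-05) and in males (log2 fold 0.44 ± 0.09, adjusted p = 0.000938). Of 18 matrix proteases and inhibitors 1 was lower in active females (5.56%, below the 15% of all genes called), and 1 was higher and 3 lower in active males (22.2%). Mmp14, a membrane collagenase gene, fell in males (log2 fold -0.41 ± 0.11, adjusted p = 0.012), and so did Plau, which encodes urokinase (log2 fold -0.54 ± 0.10, adjusted p = 0.00119). Of 15 genes of the TGF-beta pathway, which drives matrix synthesis, Ski and Skil were higher and Tgfbr2 lower in the active phase of each sex, 3 genes named after their values were seen. Of 7 collagen receptors 1 was higher in active females, and 2 higher and 1 lower in active males, among them Mrc2, the collagen uptake receptor (log2 fold 0.42 ± 0.12, adjusted p = 0.0196).

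Between the sexes, most members had less RNA in males. In the active phase 24 of 43 were lower in males and 4 higher (65.1% called), where 60.6% of all genes were called, 30.5% lower and 30.1% higher. In the inactive phase 27 were lower and 4 higher (72.1% called), where 55.7% of all genes were called, 27.8% lower and 27.9% higher. The median log2 fold was -0.32 and -0.71, beside -0.045 and -0.039 for all genes. The phases shared 27 called members, 27 of 28 and 27 of 31, and 11 members were called in neither. This overlap was not counted over all genes, so it cannot be read as a trait of the members. All libraries of a sex lay apart for 3 members higher and 13 lower in active males, where 36.3% of all genes did (20.2% higher and 16.1% lower), and for 2 higher and 18 lower in inactive males, where 32.3% did (18.6% and 13.7%). The members counted as higher, and as apart and higher, include Col6a6 and Col19a1 in each phase. These genes passed the minimum count only through the male libraries. Their place in these counts therefore rests on the difference they show.

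How the libraries are scaled bears on this comparison, because males have larger normalized totals. With equal totals the median of all genes moved to -0.32 in each phase. The members' median moved to -0.60 in the active and -0.99 in the inactive phase, a shift like that of all genes, which the scaling fixes by its construction. With that scaling 32 members were lower and 4 higher in the active phase, and 33 lower and 2 higher in the inactive phase. Of all 17333 genes, 8821 were then lower and 2635 higher in the active phase, and 9054 lower and 2051 higher in the inactive phase. No called member changed direction under any of the 3 scalings tried.

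**Figure D4:**
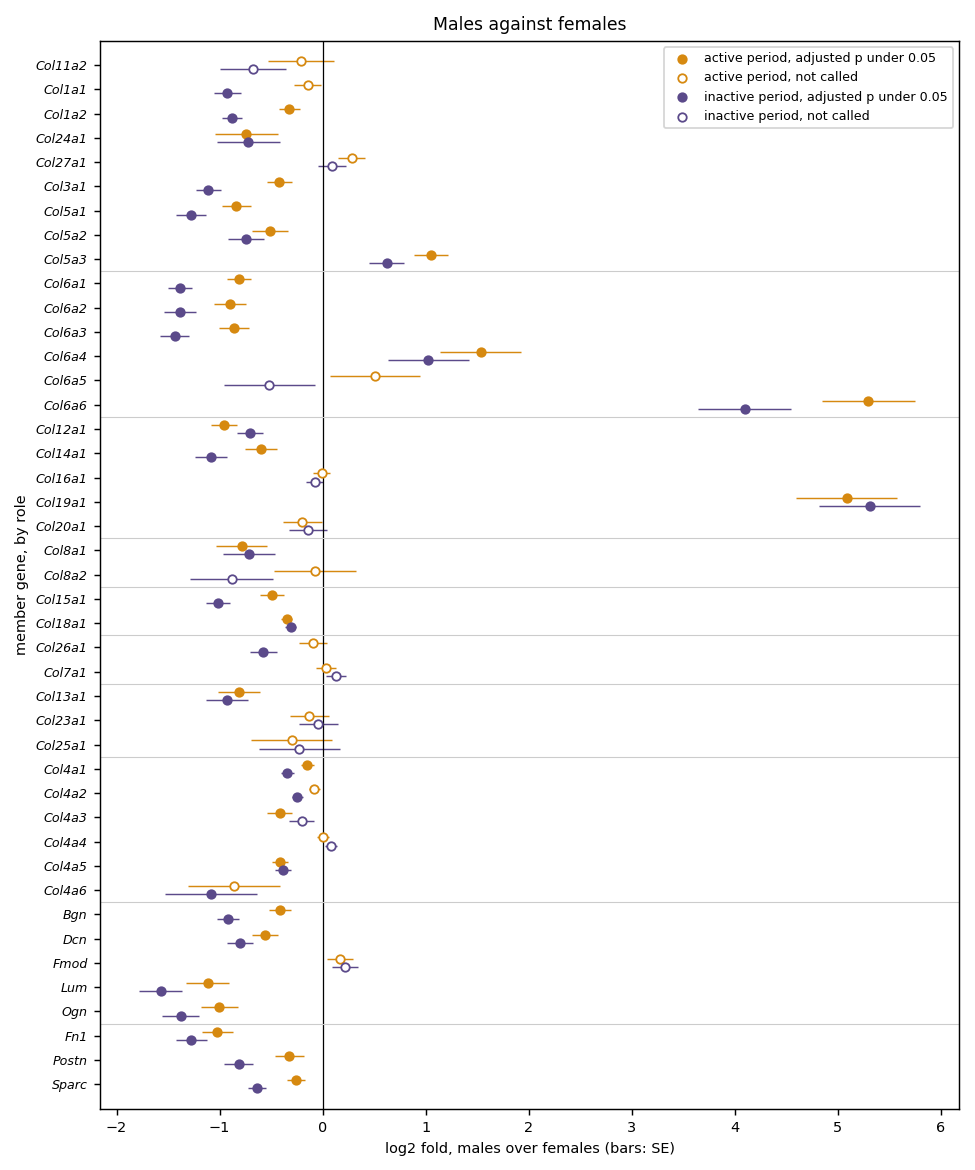
Log2 fold of males over females (x axis, bars are SE) for the 43 members (y axis, by role), in the active (orange) and the inactive phase (purple), with filled points for an adjusted p under 0.05. Most points lie left of 0, further so in the inactive phase for Col1a1, Col1a2 and Col3a1, and Col6a6 and Col19a1 lie beyond 4 to the right.

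Type VI collagen and the proteoglycans had some of the clearest differences. Col6a1 was at 751 to 1210.4 (median 1000.4) in inactive females and 321 to 553 (median 359) in inactive males, 2.60-fold lower in males (log2 fold -1.38 ± 0.12, adjusted p = 1.10e-10), and 1.75-fold lower in the active phase (log2 fold -0.81 ± 0.12, adjusted p = 1.18e-06). All male libraries lay below all female ones in each phase. Col6a2 (log2 fold -1.39 ± 0.16, adjusted p = 2.10e-08 inactive, -0.90 active) and Col6a3 (log2 fold -1.44 ± 0.14, adjusted p = 9.11e-09 inactive, -0.86 active) were lower without overlap too.

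Lum was at 101 to 232 (median 157) in inactive females and 38.5 to 81.8 (median 49.5) in inactive males, 2.98-fold lower in males (log2 fold -1.57 ± 0.21, adjusted p = 1.58e-07), and was lower in the active phase (log2 fold -1.12 ± 0.21, adjusted p = 2.84e-05). Its active female libraries were at 115 to 198 (median 175). Ogn was lower without overlap in both phases (adjusted p = 5.85e-05 active and 1.28e-06 inactive). Bgn (-0.41 and -0.92) and Dcn (-0.56 and -0.80) were lower in both phases. Fmod did not pass (0.17 and 0.22), so 4 of the 5 proteoglycans were lower in males in each phase.

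Fibronectin RNA, from Fn1 (ENSMUSG00000026193), was at 1459 to 2488 (median 1884) in active females and 674 to 1173 (median 931) in active males, without overlap. It was 2.05-fold lower in active males (log2 fold -1.02 ± 0.15, adjusted p = 3.55e-06) and 2.38-fold lower in inactive males (log2 fold -1.27 ± 0.15, adjusted p = 1.97e-07). Sparc was lower by less (-0.26 and -0.64). Postn was lower in the inactive phase (log2 fold -0.81 ± 0.14, adjusted p = 1.18e-05). Its active call (log2 fold -0.32 ± 0.14, adjusted p = 0.0471) was lost without active female library 25, 26, 27, 28 or 29 or active male library 26, 27, 29 or 30 (adjusted p 0.0506 to 0.147), and with no minimum, library weights or edgeR (0.0543 to 0.0914).

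For Col1a1, Col1a2 and Col3a1 the sexes lay further apart in the inactive phase. Col1a1 was at 614 and 556 in active females and males and did not pass (log2 fold -0.14 ± 0.13, adjusted p = 0.356), and at 797 to 1039.7 (median 919) and 326 to 726 (median 493) in inactive ones, without overlap (log2 fold -0.92 ± 0.13, adjusted p = 1.18e-06). Col3a1 was 1.33-fold lower in active and 2.14-fold lower in inactive males (log2 fold -0.42 ± 0.12, adjusted p = 0.00432 and log2 fold -1.11 ± 0.12, adjusted p = 3.32e-08). Col1a2 was lower too (log2 fold -0.32 ± 0.10, adjusted p = 0.00666 active and log2 fold -0.88 ± 0.10, adjusted p = 3.28e-08 inactive). The test of the difference between phases for Col1a1, Col1a2 and Col3a1 is the one already given. Col5a1, at 525 ± 113 and 618 ± 108 in females and 289.5 ± 32.9 and 257 ± 60.7 in males with the active phase first, was lower without overlap in both phases (log2 fold -0.84 ± 0.15, adjusted p = 1.52e-05 active and log2 fold -1.27 ± 0.15, adjusted p = 2.21e-08 inactive), and Col5a2 was lower as well (-0.51 and -0.75). The active call of Col5a2 was lost when only the groups compared were fitted (adjusted p 0.0534).

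Col12a1, which encodes a collagen that sits on the surface of fibrils, was at 460.2 to 630.3 (median 515) in active females and 189.7 to 358 (median 303) in active males (log2 fold -0.96 ± 0.13, adjusted p = 1.36e-07), and was lower in inactive males (log2 fold -0.71 ± 0.13, adjusted p = 2.11e-05). The related Col14a1 was also lower (-0.60 and -1.08), and Col16a1 and Col20a1 did not pass in either phase. Col15a1 was 2.01-fold lower in inactive males (log2 fold -1.01 ± 0.12, adjusted p = 3.50e-08) and lower in active ones (-0.49). Col18a1, the source of the fragment endostatin, was at 4454 ± 251 in active females and 3502 ± 219.8 in active males (log2 fold -0.35 ± 0.05, adjusted p = 2.16e-06), without overlap. Its inactive means were 4031 ± 138 and 3259.9 ± 301, and those of Col12a1 were 456 ± 32.7 and 279.7 ± 32.2, females first. Col13a1 was lower in males in each phase (-0.81 and -0.93). Col26a1 was lower in males in the inactive phase (log2 fold -0.57 ± 0.14, adjusted p = 0.000609) and did not pass in the active one.

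Within the pair of Col4a3 and Col4a4, one gene was called between the sexes and the other was not, a difference that was not tested. Col4a3 was lower in active males, at 7002 to 12362 (median 10321) against 11252 to 14819 (median 13997) in females (log2 fold -0.42 ± 0.12, adjusted p = 0.00459), while its neighbour Col4a4 was at 9788 to 11602 (median 11143) and 10147 to 11364 (median 11085) (log2 fold 0.01 ± 0.06, adjusted p = 0.937). In the inactive phase neither passed (-0.20 and 0.08). Col4a5 was lower in males without overlap in each phase (log2 fold -0.41 ± 0.08, adjusted p = 4.82e-05 active and log2 fold -0.38 ± 0.08, adjusted p = 0.000137 inactive).

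Col4a1 and Col4a2 were lower in inactive males (log2 fold -0.34 ± 0.06, adjusted p = 3.40e-05 and log2 fold -0.25 ± 0.05, adjusted p = 0.000246). The active call of Col4a1 (log2 fold -0.15 ± 0.06, adjusted p = 0.0446) was lost without active female library 25, 27, 29 or 30 or active male library 25, 26 or 29 (adjusted p 0.0570 to 0.135), and with no minimum, library weights or a plain variance prior (0.0604 to 0.0698). Col4a6 had a wide spread, at 101 to 433 (median 370.0) in inactive females and 39.5 to 275 (median 179) in inactive males (log2 fold -1.08 ± 0.45, adjusted p = 0.0452). That call was lost without inactive female library 31, 32, 33, 34 or 35 or inactive male library 33, 34 or 35 (adjusted p 0.0561 to 0.130), and with no minimum or only the groups compared (0.0848 to 0.101).

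Against the rest, 4 members were higher in males in each phase, Col6a6, Col19a1, Col5a3 and Col6a4. Col6a6 (ENSMUSG00000043719) was at 85.2 to 438 (median 191) in active males and 0 to 7.83 (median 6.30) in active females, and at 91.3 to 211 (median 153) and 4.89 to 19.8 (median 6.49) in the inactive phase. The mean was 44.4-fold and 17.7-fold higher in males (log2 fold 5.30 ± 0.45, adjusted p = 1.20e-10 active and log2 fold 4.10 ± 0.45, adjusted p = 1.90e-08 inactive). Female libraries held 34 reads in the active and 59 in the inactive group, over 6 libraries each, and no female library reached a male one.

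Col19a1 (ENSMUSG00000026141), which encodes a fibril-associated collagen, was at 60.2 to 139.7 (median 125) in active and 48.1 to 152 (median 105) in inactive males, and at 0 to 6.85 (median 3.31) and 0 to 3.31 (median 2.59) in females. That is 33.5-fold and 52.6-fold higher in males by means (log2 fold 5.09 ± 0.49, adjusted p = 3.90e-10 active and log2 fold 5.31 ± 0.49, adjusted p = 2.26e-10 inactive), against 22 and 14 reads in the female groups. Col6a6 and Col19a1 passed the minimum of 10 only through the male libraries, so their place in the group rests on the difference they show.

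Col5a3 was at 132 to 176 (median 152) in active and 149 to 206 (median 184) in inactive males. It was 2.08-fold higher in active males without overlap (log2 fold 1.05 ± 0.17, adjusted p = 3.10e-06) and 1.48-fold higher in inactive ones (log2 fold 0.62 ± 0.17, adjusted p = 0.00227), where the call was lost with equal totals (adjusted p 0.0874). Col6a4, at low counts of 13.3 to 49.1 (median 36.6) in active males and 4.67 to 26.2 (median 7.47) in active females, was higher too (log2 fold 1.53 ± 0.39, adjusted p = 0.00126). Its inactive call (log2 fold 1.02 ± 0.39, adjusted p = 0.0278) was lost without inactive female library 32 or 34 or inactive male library 34 or 35 (adjusted p 0.0569 to 0.0689), and with equal totals (0.0914). Col6a5, which lies between Col6a4 and Col6a6, did not pass (0.51 and -0.52).

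**Figure D5:**
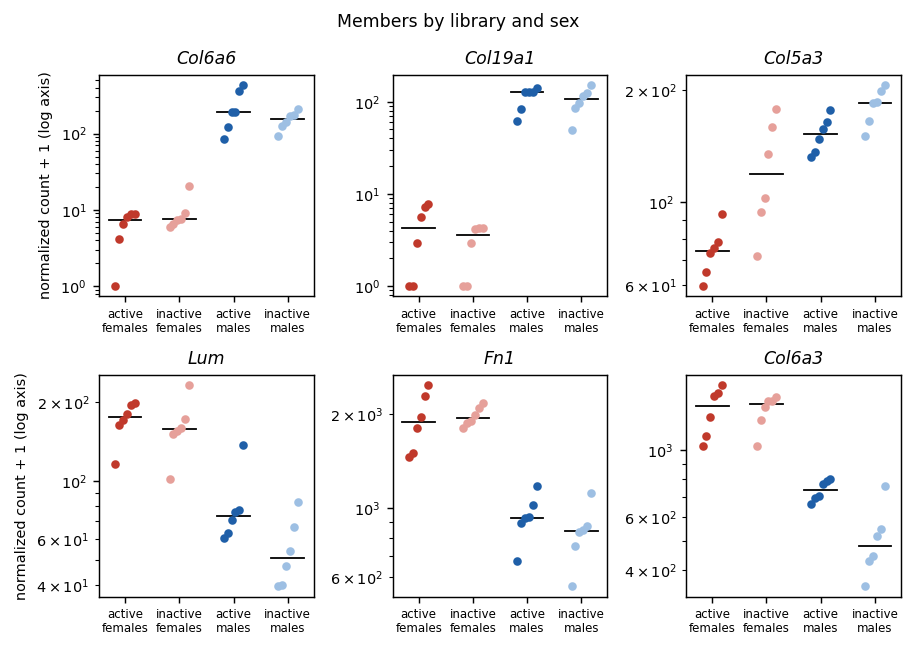
Normalized counts plus 1 of 6 members (y axes, log scale) in each library (points) of the 4 groups (x axis), with the median as a line. Male libraries of Col6a6 and Col19a1 lie above all female ones, and those of Fn1 and Col6a3 lie below them.

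Of the remaining members, Col8a1, a chain of the network around vessels, was lower in males (log2 fold -0.79 ± 0.25, adjusted p = 0.0094 active and log2 fold -0.71 ± 0.25, adjusted p = 0.0192 inactive). Its inactive call was lost without inactive male library 32 or 33 (adjusted p 0.0528 to 0.0570). Col24a1 was lower too, at log2 folds of -0.74 and -0.72 (adjusted p = 0.0387 and 0.0474). The active call was lost without active female library 27, 28 or 29 or active male library 28, 29 or 30 (adjusted p 0.0530 to 0.121), and the inactive call without inactive female library 32, 33, 34, 35 or 36 or inactive male library 31, 32, 35 or 36 (0.0525 to 0.138). They were lost too with no minimum, library weights or a plain variance prior (active, up to 0.0664) and with no minimum, a plain variance prior, edgeR or DESeq2 (inactive, 0.06 to 0.0847). Called in none of the 5 comparisons, a count not made over all genes, were 10 members, Col11a2, Col16a1, Col20a1, Col23a1, Col25a1, Col27a1, Col6a5, Col7a1, Col8a2 and Fmod. Among these, Col7a1, which encodes the collagen of anchoring fibrils, had group means of 205 to 241 in females and 246 and 223 in active and inactive males. Col16a1, a fibril-associated collagen gene, was at 649.6 ± 42.8 and 704 ± 66.0 in active and inactive females and 647 ± 70.2 and 669 ± 88.9 in males. Col20a1 was at 71.4, 84.0, 62.3 and 75.5 in the same order, and Col8a2 at 16.0, 14.9, 16.0 and 7.06.

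Podocyte, endothelial and fibroblast markers were mostly lower in males, and other marker lists were less uniform. The shares of all genes to read them against are 30.5% lower and 30.1% higher in the active phase, and 27.8% and 27.9% in the inactive phase. All 8 podocyte markers were lower in active males and 7 in inactive males, with sums of 9837 to 11648 in active males and 18231 to 19897 in active females. Of 10 endothelial markers 9 and 10 were lower, and of 12 fibroblast markers 7 and 10 were lower and 1 higher. Of 10 smooth muscle and pericyte markers 4 and 6 were lower and 1 higher in each phase. Of 9 macrophage markers 2 and 6 were lower, and 1 and 0 higher. Of 6 urothelium markers 2 and 5 were lower. Of 7 adipocyte markers 0 were lower, and 1 and 0 higher. Of 10 proximal tubule markers 6 were higher and 4 lower in active males, and 5 higher and 5 lower in inactive males. Their sum was at 565502 to 676918 in active males and 355160.0 to 441256 in active females. The summed fibroblast markers overlapped in the active phase, at 18647 to 23640.3 in males and 20914 to 27543 in females. The part of cell content in the members' sex difference was not tested.

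In the related lists of processing, elastic fibre, basement membrane, receptor, protease and TGF-beta genes, more genes were lower than higher in males. The shares to read them against are the 30.5% lower and 30.1% higher of all genes in the active phase and the 27.8% and 27.9% in the inactive phase. Of 13 processing and cross-linking genes 10 were lower in active and 11 in inactive males and 0 were higher in limma, also at an unadjusted p under 0.05. Pcolce2, which encodes an enhancer of procollagen cleavage, was 5.15-fold lower in active males (log2 fold -2.36 ± 0.18, adjusted p = 2.89e-12), and Bmp1, the protease gene it serves, 2.02-fold (log2 fold -1.02 ± 0.13, adjusted p = 4.02e-08). Loxl2, a cross-linking oxidase gene, was 2.04-fold lower (log2 fold -1.03 ± 0.13, adjusted p = 4.01e-08). With the active phase first, mean normalized counts of Pcolce2 were 246 and 219 in females and 47.7 and 49.9 in males. Those of Bmp1 were 549.6 and 526 in females and 271 and 220.1 in males, and those of Loxl2 were 460.3 and 482 in females and 226 and 208 in males. In all 3 the male means were below the female means of the same phase.

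In the active and inactive phase, 10 and 14 of 15 elastic fibre genes were lower (66.7% and 93.3%). Of 16 basement membrane genes 12 and 13 were lower (75.0% and 81.2%) and 2 and 2 higher, and of 7 collagen receptors 4 and 4 were lower (57.1%). Lamc1 (log2 fold -0.61 ± 0.06, adjusted p = 9.19e-11) and Lama2 (log2 fold -0.84 ± 0.11, adjusted p = 1.07e-07), laminin genes, and Itga1 (log2 fold -0.74 ± 0.05, adjusted p = 8.06e-14) and Ddr2 (log2 fold -1.15 ± 0.19, adjusted p = 9.90e-06), collagen receptor genes, were lower in active males. Of 18 proteases and inhibitors 7 and 10 were lower (38.9% and 55.6%), among them Timp2 (log2 fold -0.60 ± 0.11, adjusted p = 7.45e-05). Of 15 TGF-beta genes 9 were lower and 1 higher in each phase, with Tgfb2 4.27-fold (log2 fold -1.95 ± 0.22, adjusted p = 3.12e-08) and Smad3 1.49-fold lower (log2 fold -0.57 ± 0.08, adjusted p = 2.80e-07) in active males.

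Mean normalized counts of the genes named from these lists follow, with the active phase first. Among basement membrane genes, Lamc1 was at 1755 and 1927 in females and 1155 and 1254 in males, and Lama2 at 863 and 893 in females and 479 and 415 in males. Npnt was at 11727 and 7956 in females and 5726 and 4216 in males. Its active means were above its inactive means in each sex, as its tests above showed.

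Among receptors, Itga1, a chain of a collagen-binding integrin, was at 5959 and 5853 in females and 3567 and 3836 in males. Ddr2, a receptor kinase that collagen activates, was at 673 and 687 in females and 308 and 276 in males, and Mrc2 at 779 and 794 in females and 559.5 and 428 in males. All 3 were lower in active males. Among proteases, Mmp14 was at 352 and 413 in females and 164 and 219.7 in males, Timp2, an inhibitor of metalloproteases, at 2024 and 2027 in females and 1331 and 1099 in males and Plau at 16974 and 20143 in females and 10005 and 14602 in males.

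Among elastic fibre genes, Ltbp4 was at 1430.0 and 1347 in females and 1056 and 725 in males. Fbn1 was at 492 and 684 in females and 278 and 342 in males, and Emilin1 at 797 and 792 in females and 561 and 431 in males. In the TGF-beta list, Tgfb2, a ligand gene, was at 373 and 295 in females and 87.2 and 103 in males, Smad3, a signal transducer gene, at 1485 and 1677 in females and 995 and 1068 in males and Ski, a gene whose product restrains that signal, at 2804 and 2394 in females and 2291 and 1924 in males.

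The synthesis enzymes were more evenly split, with 4 of 16 higher and 3 lower in active males and 3 higher and 6 lower in inactive males. Crtap, part of the prolyl 3-hydroxylation complex, was 1.95-fold higher in active males (log2 fold 0.96 ± 0.07, adjusted p = 2.15e-13), and P3h2, a prolyl 3-hydroxylase gene, was 2.05-fold lower (log2 fold -1.03 ± 0.07, adjusted p = 5.56e-13). With the active phase first, mean normalized counts of Crtap were 987 and 1018 in females and 1921 and 1727 in males. Those of P3h2 were 3065 and 3151 in females and 1497 and 1729 in males. Crtap was above and P3h2 below the female means in males of each phase. Mia3 was at 3431 and 2873 in females and 4144 and 4097 in males. P4hb was higher in males in each phase (0.45 and 0.46), in contrast to Col1a2, Col3a1 and Col6a1, which were lower in each phase.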

How the data were processed

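RNA of 24 mouse kidney libraries was measured by sequencing after poly A selection. The deposited signal holds normalized counts, which, as the values show, the authors made by scaling each library's gene counts by a single factor. Tools in the submitters' processing notes are DESeq2 1.28.1, featureCounts, Subread 2.0.6 and Trim Galore 0.6.10, with build GRCm39. For roles, strand setting and annotation release the answer is: not given in the sources used here. Antisense reads therefore cannot be told apart. All values above 0 were whole multiples of 1 step per library (within 0.05), which gave whole reads. Symbols and exon lengths come from GENCODE M21 (GRCm38) by gene ID, with 52073 of 56748 identifiers matched. Promoter windows come from RefSeq (GRCm38.p6), for 34 of 43 members.

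Values were tested as log2(normalized count + 1) with limma 3.58.1 in R 4.3.3 in 1 fit of all groups, with 20 residual degrees of freedom and a variance prior that was robust and followed the mean. P-values were adjusted by Benjamini-Hochberg over 17333 genes, and an adjusted p under 0.05 was called. There were 5 comparisons. Levels are mean ± SD, or lowest to highest, with n = 6 libraries per group, and folds are ± SE. Fold ratios are of mean normalized counts. Folds are on the log2(value + 1) scale, which understates changes of low genes. Counting error is part of every SD and is largest near the minimum of 10.

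Members and lists were chosen with earlier results of these data known. All members are accounted for. Group values are given for members called between phases, for the 10 of smallest adjusted p in each sex comparison, for the leading type I, III, IV and VI chains and the 8 other genes, and for 3 genes of smallest adjusted p per related list. Alternatives were other pseudocounts, no minimum, 3 other scalings, a fit of the compared groups alone, weights per library, a prior that was neither (called plain), a block by title number, each library left out, and edgeR 4.0.16 and DESeq2 1.42.0 on recovered reads. Reads were not analysed here.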

Additional observations from a re-analysis of the deposited data

Results flagged for a closer look

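In 11 of 172 groups of 6 libraries (43 members in 4 groups, 6.4%) the highest or lowest library stood apart from the other 5 by more than the 95% limit of Dixon's ratio, where chance gives about 1 in 20. Inactive male library 32 accounts for 4 of them, as the highest of its group for Col14a1 (1815, next 1138), Dcn (1793, next 1220.0), Col6a1 (553, next 396) and Col6a5 (22.4, next 10.7). Inactive female library 34 was the lowest for Dcn (1449, next 2054) and Col6a2 (336, next 500.3). The others were Col7a1 in active female library 30 (294, next 236), Lum in active male library 28 (136, next 76.4), Col4a5 in inactive male library 36 (2129, next 1879), Col4a6 in inactive female library 36 (101, next 340.5) and Col6a6 in inactive female library 33 (19.8, next 8.08).

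The change between phases differed between males and females for Col1a1 (0.78, male minus female on the log2 scale), Col3a1 (0.69) and Col1a2 (0.56), by a test of the difference itself.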

How the results depend on the processing

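Counts of called members stayed within 1.5 times their value in the 11 or 12 other settings and in each analysis with a library left out, for the phases and for the sexes. They ranged from 8 to 11 in other settings and from 7 to 9 with a library left out in females (9 as reported), 8 to 11 and 7 to 12 in males (10), 25 to 36 and 25 to 27 for sex in the active phase (28), and 29 to 35 and 28 to 31 in the inactive phase (31). The count for the difference between the sexes in the phase change, 3 as reported, was 7 with library weights, 6 with DESeq2, and 1 to 9 with a library left out. The number in the titles, shared by a male and a female library of the same phase, is not said to pair them. Of 12 such pairs 1 had a correlation of deviations over 0.1, the lowest was -0.104 and the highest 0.124, and in 4 the best correlation was with the same number. With this number as a replicate block the count for that difference was 9, where 3.06% of all genes were called. Col4a1 in the active and Col4a6 in the inactive phase were then not called between the sexes (adjusted p 0.0519 and 0.0839). No called direction reversed in any setting. Of the calls, 7 of 9 in females, 7 of 10 in males, 1 of 3 for the difference, 24 of 28 and 26 of 31 for sex kept their side of the threshold throughout. The cause of these losses was not tested. Among all genes, equal totals moved the share of higher calls from 49.7% to 23% and from 50.1% to 18.5% for sex in the active and inactive phase, and from 53.3% to 39.4% for the phases in females. In males upper quartile scaling and equal totals each moved it from 54.8% to 43.7%. The SE of the log2 fold between phases in females was 0.39 to 0.44 for Col6a4, Col6a5, Col8a2 and Col25a1, at mean counts of 13.5 to 23.8, and 0.45 for Col4a6 at a mean of 239.6. What depth adds to these errors was not tested.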

Other observations

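Ratios of chains that are assembled together were read in single libraries, after the values were seen and without a test. They are ratios of counts and were not divided by gene length. The ratio of Col1a2 to Col1a1 normalized counts was 3.28 to 4.16 in active females and 2.73 to 3.11 in inactive females, with no overlap, and 2.83 to 4.24 and 2.44 to 3.60 in males. The ratio of Col4a3 to its neighbour Col4a4 was 1.07 to 1.35 in active and 1.04 to 1.19 in inactive females, and 0.715 to 1.07 and 0.846 to 1.01 in males. Col6a1 over Col6a2 had medians of 2.05, 2.05, 1.96 and 2.10 in the active and inactive phase of females and then of males, in that order.

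Collagens under the minimum were Col9a1, Col9a2, Col9a3, Col22a1, Col11a1, Col2a1, Col28a1, Col17a1 and Col10a1, at means of 0.498 to 9.998 normalized counts. Col9a1, which neighbours Col19a1, was at 0.498.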
